A study of Mus musculus with 12 samples.

Results

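Peaks of trimethylated lysine 4 of histone H3 (H3K4me3) between genes were examined in irradiated mouse back skin. A peak of the H3K4me3 list belonged to the set when its midpoint lay outside every protein-coding gene and more than 1 kb from both ends of each one. The rule was met by 770 of the 5464 peaks, or 14.1% of the list (95% exact Clopper-Pearson interval 13.2% to 15.04%). Of the other peaks, 3204 lay within 1 kb of a protein-coding gene end, 1486 lay inside such genes away from their ends, and 4 lay on contigs for which the gene table gives no positions. The rule used only positions, so fold, depth, noncoding genes, sequence and p53 binding were not part of it.

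Chromatin immunoprecipitation followed by sequencing was applied to 12 samples in 6 groups of 2. H3K4me3 was assayed at T0 and at 6 h in wild-type skin (WT). The transcription factor p53 was assayed at the same times in WT and in K17KO skin. All groups were back skin of mice 8 to 10 weeks old, with 5 Gy of ionizing radiation as the treatment. K17KO is the name in the labels, and what it abbreviates is not given, nor whether the 2 samples of each group were from different animals. Each antibody is represented by a peak list that names no library, time or replicate (1 list for H3K4me3, and for p53 a list of 2909 peaks, taken as WT because it names no genotype, and a K17KO list of 1101). T0 and 6 h therefore could not be compared, and no value below has a replicate error. Intervals cover counting error only.

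H3K4me3 is laid down by SET1 and MLL methyltransferase complexes at the starts of transcribed genes, most readily where the DNA is rich in unmethylated CpG dinucleotides. Away from protein-coding genes the mark is known at the starts of long noncoding RNAs (lncRNAs), at the host transcripts of microRNAs and at some active enhancers. MicroRNAs are cut from such longer transcripts, whose start can lie far upstream of the hairpin. They pair with messenger RNAs through their seed, bases 2 to 8 of the mature strand. Active genes of RNA polymerase III, such as those of transfer RNAs and 5S ribosomal RNA, also carry the mark beside them.

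Mature microRNAs are shown because several of the named peaks lay at or upstream of their genes. The sequences are from RefSeq, written 5′ to 3′ with the seed in capitals. The 9 sequences have 9 distinct seeds, so none of these microRNAs shares a seed of 7 bases with another.
miR-205-5p: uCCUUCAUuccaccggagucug
miR-200c-3p: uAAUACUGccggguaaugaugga
miR-141-3p: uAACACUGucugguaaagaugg
miR-183-5p: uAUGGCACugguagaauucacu
miR-96-5p: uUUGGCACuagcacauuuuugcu
miR-182-5p: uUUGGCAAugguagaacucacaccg
miR-99a-5p: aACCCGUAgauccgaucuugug
miR-34a-5p: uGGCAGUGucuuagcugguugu
let-7a-5p: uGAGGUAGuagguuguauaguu

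MiR-205 and the miR-200 family members miR-200c and miR-141 are microRNAs of epithelia, and miR-205 is abundant in the epidermis and hair follicle. The miR-183, miR-96 and miR-182 cluster is best known from sensory cells and is also made in skin. MiR-34a is a direct target of p53. Let-7a and miR-99a are widely expressed and restrain growth.

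Start windows of lncRNA genes are shown because a peak midpoint lay within 500 bp of each of these starts. The first 3 were chosen for many CpG and the last for few. Each window holds 300 bases, 250 before and 50 after the annotated start, from RefSeq on the build GRCm38.p6, whose coordinates are those of mm10. They are Mirc35hg at chr6:30174076-30174375, Snhg15 at chr11:6528711-6529010, Cistr at chr15:102746860-102747159 and Gm32861 at chr7:110288349-110288648, all on the minus strand. Peak midpoints lay 420 bp upstream of the Mirc35hg start, 391.5 bp upstream of the Cistr start and 328 bp downstream of the Snhg15 start. A window is thus not the sequence under its peak, and the Mirc35hg peak lay outside its window. Capitals mark CpG dinucleotides.
Mirc35hg: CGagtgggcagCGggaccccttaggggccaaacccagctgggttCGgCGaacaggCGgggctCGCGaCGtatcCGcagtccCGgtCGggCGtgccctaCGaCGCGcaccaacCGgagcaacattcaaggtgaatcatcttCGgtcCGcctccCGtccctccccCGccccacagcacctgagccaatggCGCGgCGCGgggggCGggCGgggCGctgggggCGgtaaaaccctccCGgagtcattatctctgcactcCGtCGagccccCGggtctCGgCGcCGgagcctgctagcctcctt
Snhg15: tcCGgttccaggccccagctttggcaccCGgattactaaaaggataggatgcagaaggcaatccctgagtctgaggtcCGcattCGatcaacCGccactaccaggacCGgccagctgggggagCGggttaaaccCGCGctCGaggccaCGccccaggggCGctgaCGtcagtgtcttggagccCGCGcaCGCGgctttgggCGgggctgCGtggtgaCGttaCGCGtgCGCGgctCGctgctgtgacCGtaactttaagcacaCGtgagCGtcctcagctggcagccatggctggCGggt
Cistr: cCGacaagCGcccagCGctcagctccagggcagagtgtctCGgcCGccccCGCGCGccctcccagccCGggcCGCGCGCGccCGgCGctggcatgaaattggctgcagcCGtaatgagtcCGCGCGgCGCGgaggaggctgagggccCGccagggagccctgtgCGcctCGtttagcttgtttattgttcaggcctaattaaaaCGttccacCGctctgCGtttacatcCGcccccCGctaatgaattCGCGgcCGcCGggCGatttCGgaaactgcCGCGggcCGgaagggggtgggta
Gm32861: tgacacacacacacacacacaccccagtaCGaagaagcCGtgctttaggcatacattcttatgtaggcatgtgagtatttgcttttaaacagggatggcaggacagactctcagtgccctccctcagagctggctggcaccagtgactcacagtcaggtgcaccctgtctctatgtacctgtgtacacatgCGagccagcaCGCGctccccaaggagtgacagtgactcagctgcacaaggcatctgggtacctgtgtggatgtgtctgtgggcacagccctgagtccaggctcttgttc

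These windows hold 35 CpG for Mirc35hg, the host transcript of the miR-183 cluster, 29 for Snhg15, a host gene of small nucleolar RNAs, 38 for Cistr and 5 for Gm32861. The peak at the Mirc35hg start had 144 fragments over a background of 81.3, and the one at Snhg15 had 170 over 86.9. The peak at Cistr had 97 fragments over 31.8, and the one at Gm32861 had 10 over 1.31. Among these chosen starts, the one with few CpG was also the one with few fragments. This did not hold for every start at a peak, since the Snhg11 window held 21 CpG and its peak had 13 fragments over 3.12.

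Fold enrichment is the authors' value for each peak, the ratio of the fragment pileup at its summit to the caller's background, each plus 1. Fragments and background were recovered for each peak from that fold and its p-value. The median fold was 2.58 between genes (range 1.27 to 8.66), against 1.55 within 1 kb of gene ends and 1.95 inside genes. The depth ran the other way. The median peak between genes had 34.5 fragments over a background of 11.8, against 188 over 121 at gene ends and 70.5 over 34.6 inside genes. Peaks between genes thus had higher ratios built on fewer fragments. At a low background only a high ratio can pass a Poisson p-value, so a high fold here does not show a high level of the mark. Widths were close, with medians of 308 bp between genes, 341 bp at gene ends and 330 bp inside genes.

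**Figure D1:**
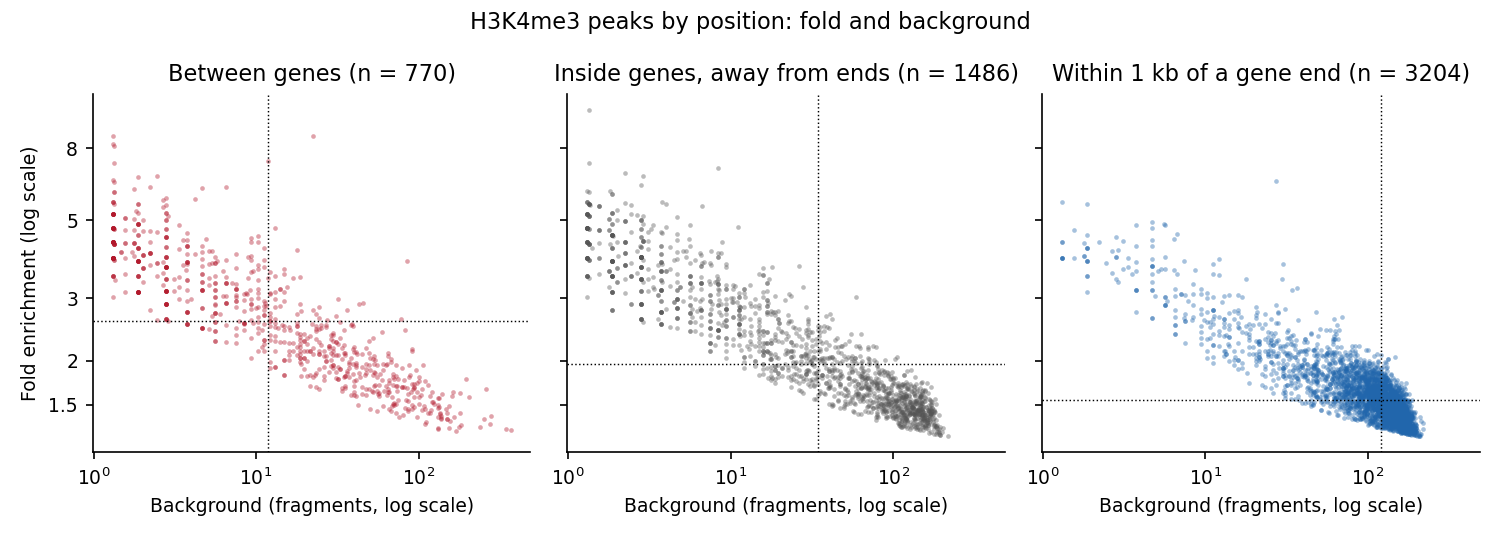
Fold enrichment (log scale) against background in fragments (log scale) for each H3K4me3 peak, in panels for peaks between genes, inside genes and within 1 kb of gene ends. Each point is a peak and dotted lines mark the medians, which are 2.58, 1.95 and 1.55 for fold and 11.8, 34.6 and 121 fragments for background.

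A fold of at least 3 was reached by 310 of the 770 peaks, or 40.3% (36.8% to 43.8%), beside 14% of all H3K4me3 peaks on chromosomes. The share was 3.06% at gene ends and 24.0% inside genes. A background under 2 fragments was found at 131 peaks between genes, 17.01% (14.4% to 19.9%), beside 5.26% of all peaks. A background of at least 100 fragments was found at 60 peaks, 7.79% (6.00% to 9.92%), beside 46.2% of all. The peaks therefore ran from sites with a handful of fragments to sites as deep as those at gene ends. The caller's q-value did not separate them from the list, since 550 peaks, 71.4% (68.1% to 74.6%), had q of at most 0.01, beside 72.5% of all, and 689 (89.5%) had q of at most 0.1, beside 89.7%.

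The 131 peaks with a background under 2 fragments had a median of 10 fragments (6 to 19) and a median fold of 4.32. The 221 with a background of 2 to 10 had a median of 17 fragments and a fold of 3.33. The 358 with 10 to 100 had 65 fragments and a fold of 2.07, and the 60 with at least 100 had 197 fragments and a fold of 1.45. A noncoding gene lay within 1 kb of 24.4%, 27.1%, 43.6% and 53.3% of these peaks, in the same order. The share beside noncoding genes was thus greater in the groups with more fragments.

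Distance to the nearest protein-coding gene end had a median of 20263 bp and reached 832634 bp. Within 2 kb lay 37 peaks, from 2 to 5 kb 84, and from 5 to 10 kb 119. The largest group, 334 peaks, lay at 10 to 50 kb, and 196 peaks, 25.5% (22.4% to 28.7%), lay beyond 50 kb. These groups differed in depth. The median was 76 fragments over 41.1 at 1 to 2 kb, 41 over 14.96 at 5 to 10 kb, and 25 over 7.95 beyond 100 kb. Median fold was 1.82 at 1 to 2 kb and between 2.15 and 2.91 in the more distant groups. The nearest end was the gene's start for 307 peaks and its other end for 300, with the strand unknown for 163. Gene starts were thus about as often the nearest end as the other ends.

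**Figure D2:**
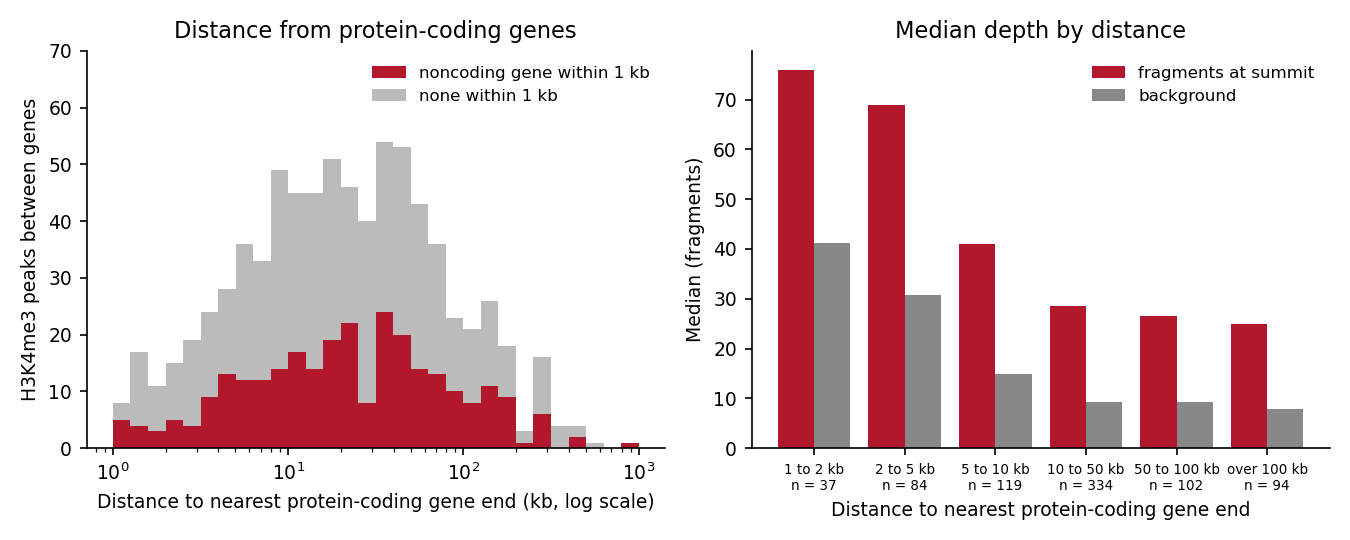
Left, number of H3K4me3 peaks between genes by distance to the nearest protein-coding gene end (kb, log scale), stacked by whether a noncoding gene lay within 1 kb. Right, median fragments at the summit and median background for each distance group with its n, from 76 over 41.1 at 1 to 2 kb to 25 over 7.95 beyond 100 kb.

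The 3 peaks on either side of the 1 kb limit had folds between 1.36 and 1.96. Just outside it were peaks 1093 bp from Cirbp, which encodes a cold-inducible RNA-binding protein (1.82-fold), 1093.5 bp from Zhx2 (1.96-fold) and 1107 bp from Nrp1 (1.76-fold). Just inside it, and not counted, were peaks 994 bp from Bhlhe41 (1.58-fold), 983 bp from Ap3m2 (1.36-fold) and 923.5 bp from Usp1 (1.65-fold).

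The peak of highest fold lay at chr6:3201284-3201622, 170804 bp from Samd9l, at 8.66-fold with 202 fragments over 22.4. At chr4:138327572-138328011, 1495 bp from Pink1, which encodes a mitochondrial quality-control kinase, the fold was 7.33 with 93 over 11.8. The other 8 of the 10 highest folds had a background under 3 fragments and 14 to 22 fragments. Their nearest genes were Nfam1, Rps12, Gbp5, Arhgef12, Fut8, Ap2s1, Gm4791 and Pom121l12. None of the 10 had a noncoding gene within 1 kb. The top of the fold ranking was therefore made mostly of shallow peaks away from annotated transcripts.

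A noncoding gene contained the midpoint or had an end within 1 kb at 280 of the 770 peaks, 36.4% (33.0% to 39.9%), beside 17.4% of all H3K4me3 peaks. The shares at gene ends (14.5%) and inside genes (13.9%) were lower, with intervals that did not overlap that of peaks between genes. Since noncoding genes are placed largely between protein-coding ones, the share also depends on where such genes are annotated. The midpoint lay inside a noncoding gene at 223 peaks (29.0%, beside 9.85% of all). An lncRNA gene was the kind met at 247 peaks (32.1%, beside 15.5%). Across the 6 distance groups the share with a noncoding gene stayed between 31.9% and 40.4%.

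An annotated lncRNA start lay within 500 bp of the midpoint at 78 of the 759 peaks on chromosomes with start windows, 10.3% (8.21% to 12.7%), beside 6.12% of all peaks. Those 78 had a median fold of 2.06 over a background of 35.1. A further 156 lay inside a noncoding gene with no such start and had a median fold of 2.47 over 16.4. The 484 with no noncoding gene within 1 kb, 63.8% of the 759, had a median fold of 2.91 over 7.52. The unannotated peaks were thus the shallowest of these groups. In the other direction, 79 of the 5990 lncRNA genes with a start between protein-coding genes had such a peak, 1.32% (1.05% to 1.64%).

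Within 2 kb of an lncRNA start, the midpoints of 125 peaks lay at a median of 243.5 bp downstream. At protein-coding starts the 2520 gene-end peaks within 2 kb had a median of 261.5 bp downstream. Of the 125, 58 (46.4%) lay 150 to 1000 bp downstream and 19 (15.2%) lay as far upstream. A further 23 (18.4%) lay within 150 bp and 25 (20%) lay over 1000 bp away on either side. The gene-end class holds only peaks within 1 kb of a gene end, so the spread around the 2 kinds of start was not compared. Of these ranges, 150 to 1000 bp downstream held the most peaks at both kinds of start, with 46.4% at lncRNA starts and 78.5% at protein-coding starts. The ranges differ in width, so these shares do not give the density of peaks per base.

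**Figure D3:**
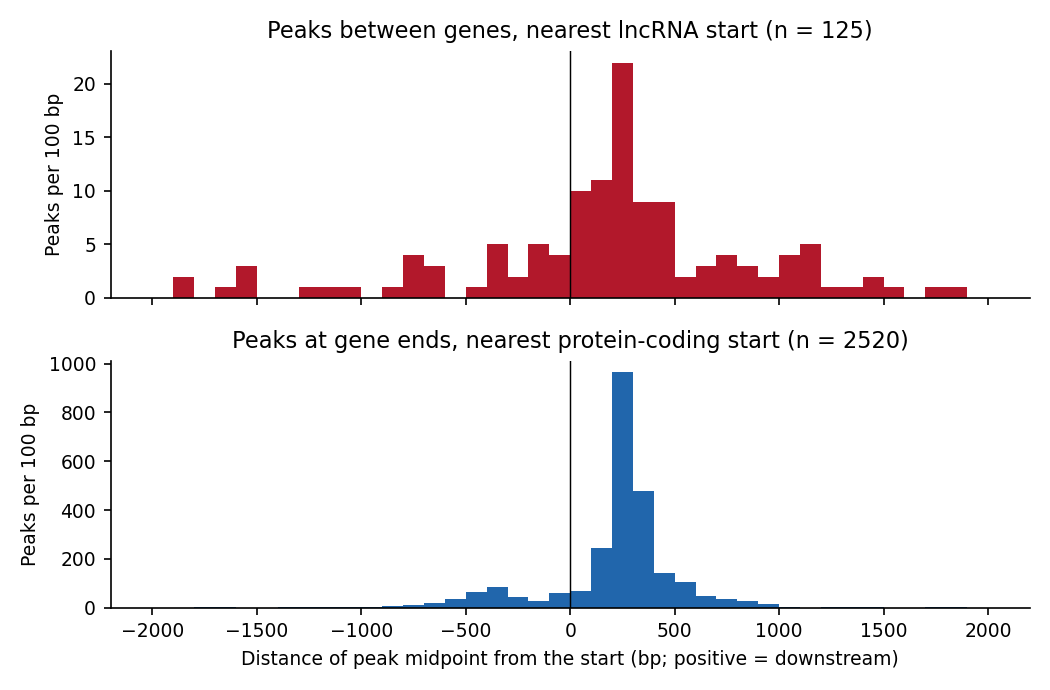
Number of peaks per 100 bp by distance of the peak midpoint from the nearest annotated start (bp, positive downstream), for 125 peaks between genes at lncRNA starts and 2520 gene-end peaks at protein-coding starts. The medians are 243.5 and 261.5 bp downstream, and both histograms are highest at 200 to 300 bp.

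The lncRNA start windows at peaks were CpG-rich. The 90 windows had a median of 12 CpG in 300 bases, against 3 in the 7206 other lncRNA windows between genes and 13 in 21263 protein-coding windows. The 90 belong to 79 genes, and some of them overlap or repeat the same sequence, so they are not independent starts. At least 15 CpG were present in 41.1%, 2.94% and 46.8% of windows, and the median GC content was 56%, 47% and 56.3%. In CpG content the lncRNA starts with a peak thus lay near protein-coding starts and apart from lncRNA starts without one. Among the 90, the 51 at peaks with a background of at least 30 fragments had a median of 17 CpG and the 39 below it a median of 7. Gene and window counts, and not samples, stand behind these values.

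**Figure D4:**
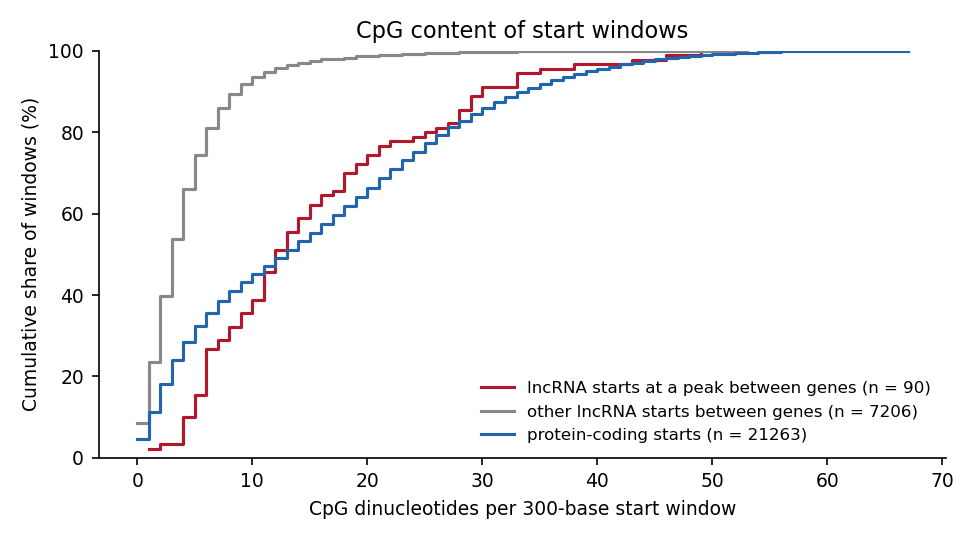
Cumulative share of 300-base start windows (%) by number of CpG dinucleotides, for lncRNA starts at a peak between genes, other lncRNA starts between genes and protein-coding starts. The curve of the 90 windows at peaks runs beside that of protein-coding starts (medians 12 and 13), while that of the 7206 other lncRNA windows lies far to the left (median 3).

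Motifs were searched on both strands of the same windows, and any overlap between motifs was allowed. The letters GGGCGG, bound by Sp1 and related factors, were in 40% of the 90 windows, in 8.85% of the other lncRNA windows and in 46.2% of protein-coding ones. These letters hold a CpG and so follow CpG content. CCAAT was in 45.6%, 37.8% and 38.2%, and TATAAA in 14.4%, 17.7% and 12.6%. CACGTG, the E-box also read by clock factors, was in 12.2% (11 windows), 5.63% and 7.84%. It too holds a CpG. TGACTCA, the AP-1 letters, was in 6.67%, 6.95% and 4.66%. A full p53 site without a spacer was in 0 of the 90 windows, 0.0278% of the other lncRNA windows and 0.0047% of protein-coding windows. Matches describe these windows only, and overlapping windows can hold the same match.

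Of 35 microRNA genes of skin and their hosts in the gene table, 4 had a peak between genes within 5 kb, beside 2.44% of all noncoding genes. They were Mir205, Mir205hg, Mir200c and Mir141, which rest on only 2 peaks. Mir183, Mir96 and Mir99a also had a peak within 5 kb but are not counted among them. The peak at chr1:193507939-193508233 lay 555.5 bp upstream of the Mir205 hairpin, inside its host Mir205hg, at 1.84-fold with 80 fragments over 42.9. The peak at chr6:124719055-124719292 lay 783 bp upstream of Mir200c and 1188 bp upstream of Mir141, at 1.80-fold with 125 over 69.2. Both were upstream of the hairpin at moderate fold and depth. That peak was also 1533 bp from Ptpn6, so the transcript it belongs to cannot be told apart from these data. Mir183, Mir96 and Mir182 shared the peak at chr6:30174378-30174713 at the Mirc35hg start, 4808, 4994 and 8553 bp upstream of their hairpins, at 1.76-fold.

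Other microRNA genes followed at greater or lesser distance. A peak 4791 bp upstream of Mir99a was at 1.75-fold with 71 fragments over 40.2, and a further one inside its host Mir99ahg was at 2.81-fold with 30 over 10.0. A peak 7953.5 bp upstream of Mirlet7a-1 was at 1.61-fold with 292 over 180, one of the deeper peaks between genes. All of these lay upstream of the hairpin or inside the host gene, at low to moderate fold. The peak 378.5 bp from Mir688 was at 1.40-fold, and that 644.5 bp from Gm51293, the gene of miR-12199, was at 3.77-fold with 12 over 2.45, beside Hopx. Peaks at the neuronal microRNAs of the miR-124 family were at 2.71-fold (598.5 bp from Mir124a-3, 50 over 17.8) and 3.57-fold (702.5 bp from Mir124a-1hg, 46 over 12.2). A peak inside Mir9-3hg was at 2.90-fold with 29 over 9.35. A microRNA gene lay within 1 kb of 6 of the 770 peaks, 0.779%, beside 0.971% of all H3K4me3 peaks, so peaks between genes did not hold more of them than the list as a whole.

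Several nuclear and widely expressed lncRNAs carried peaks. Malat1, a nuclear speckle RNA, had a peak 607 bp outside the gene at 1.60-fold with 224 fragments over 139. Neat1, the scaffold of paraspeckles, had 3 peaks inside the gene at 1.80-, 1.60- and 1.29-fold, with 101, 102 and 230 fragments. The deepest of them lay 279.5 bp inside a gene end. Dleu2, host of the miR-15a and miR-16 genes, had peaks at 1.80-, 1.49- and 1.42-fold with 159, 229 and 214 fragments. Norad, which binds Pumilio proteins, had a peak at 1.49-fold with 162 over 108, and Morrbid had one at 3.90-fold with 8 over 1.31. Among 29 such lncRNAs in the gene table, 7 had a peak between genes within 5 kb, beside 2.44% of all noncoding genes.

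Among host genes of small nucleolar RNAs, 3 of 21 had such a peak, again beside 2.44%. Snhg15 had a peak 328 bp inside its start at 1.94-fold with 170 fragments over 86.9, and another at 1.49-fold with 64 over 42.5. Snhg7 had a peak at 1.37-fold with 189 over 137, and Snhg11 one at 3.40-fold with 13 over 3.12. Levels at these genes thus covered both deep and shallow sites. Emx2os, the antisense partner of the developmental gene Emx2, had the highest fold beside a noncoding gene with a name of its own, 4.09 with 24 over 5.12. It was the only gene typed as antisense RNA within 1 kb of the 770 peaks, as of all H3K4me3 peaks (0.0183%). The type is that of the gene table, and antisense genes of other types are not counted. The peak at Cistr was at 2.99-fold, and that at Kantr, 214.5 bp inside the gene, was at 1.83-fold with 107 over 58.0.

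Of 18 noncoding RNAs linked to p53, 4 had a peak between genes within 5 kb, beside 2.44% of all noncoding genes. With lists this short and chosen with earlier results known, no excess was tested. They were Lncpint, Neat1, Pvt1 and Trp53cor1, the last also known as lincRNA-p21. Lncpint had peaks at 2.03-, 1.66- and 1.44-fold with 79, 154 and 153 fragments, the last of them 403 bp inside its start. Pvt1, a neighbour of Myc, had a peak 1468.5 bp inside a gene end at 3.08-fold with 29 over 8.74.

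Overlap with p53 peaks was rare. A WT p53 peak overlapped 5 of the 770 peaks by at least 1 bp, 0.649% (0.211% to 1.51%), beside 0.513% of all H3K4me3 peaks. A K17KO p53 peak overlapped 6, 0.779% (0.286% to 1.69%), beside 1.25% of all. Together 10 peaks overlapped either list, 1.299% beside 1.68% of all. These were 0.172% of the WT p53 list and 0.545% of the K17KO list. The shares lay near those of the whole H3K4me3 list.

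The site in both lists lay at chr4:150048810-150049761, inside the lncRNA gene Gm13067 and 19168 bp upstream of Mir34a. H3K4me3 was at 2.13-fold with 194 fragments over 90.7, the WT p53 peak was at 10.18-fold with 31 over 2.14, and the K17KO p53 peak was at 6.98-fold with 26 over 2.87. Both p53 peaks fell within the H3K4me3 peak. H3K4me3 peaks on either side of it were at 1.80-fold (181 over 100.04) and 3.22-fold (52 over 15.4). Since the p53 lists have no replicates, their folds at this site were not compared.

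At chr17:29078522-29078873 the H3K4me3 peak lay 429 bp inside the end of Trp53cor1 that faces Cdkn1a, the cell cycle inhibitor p21, 12281 bp away. H3K4me3 was at 2.22-fold with 78 fragments over 34.6, and a WT p53 peak at 4.30-fold, with 8 over 1.09, overlapped it by 28 bp. This overlap was small and rested on few p53 fragments. At Snhg15 the WT p53 peak was at 5.03-fold with 29 over 4.96 and overlapped the shallower H3K4me3 peak inside the gene, not the one at its start. That H3K4me3 peak had a −log10 q of 0.306, among the weakest of the list. The remaining WT overlaps, at chr9:3034873-3035146 and chr9:3037878-3038158, were with p53 peaks of 1.21- and 1.28-fold over backgrounds of 347 and 285 fragments.

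The other K17KO overlaps lay 4925.5 bp from Plek2, 9129 bp from Scd2, 598.5 bp from Mir124a-3 near Ythdf1, in the neighbourhood of Zfp600, and 6147 bp from Gm40363. The p53 folds there were 4.73, 4.09, 3.70, 2.33 and 1.98, with 9, 7, 13, 28 and 56 p53 fragments. H3K4me3 folds at the same sites were 2.30, 2.31, 2.71, 2.203 and 1.66. None of these overlapped a WT p53 peak, and of the whole K17KO list 9 of 1101 peaks did (0.817%), so the count says nothing particular to these sites.

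**Figure D5:**
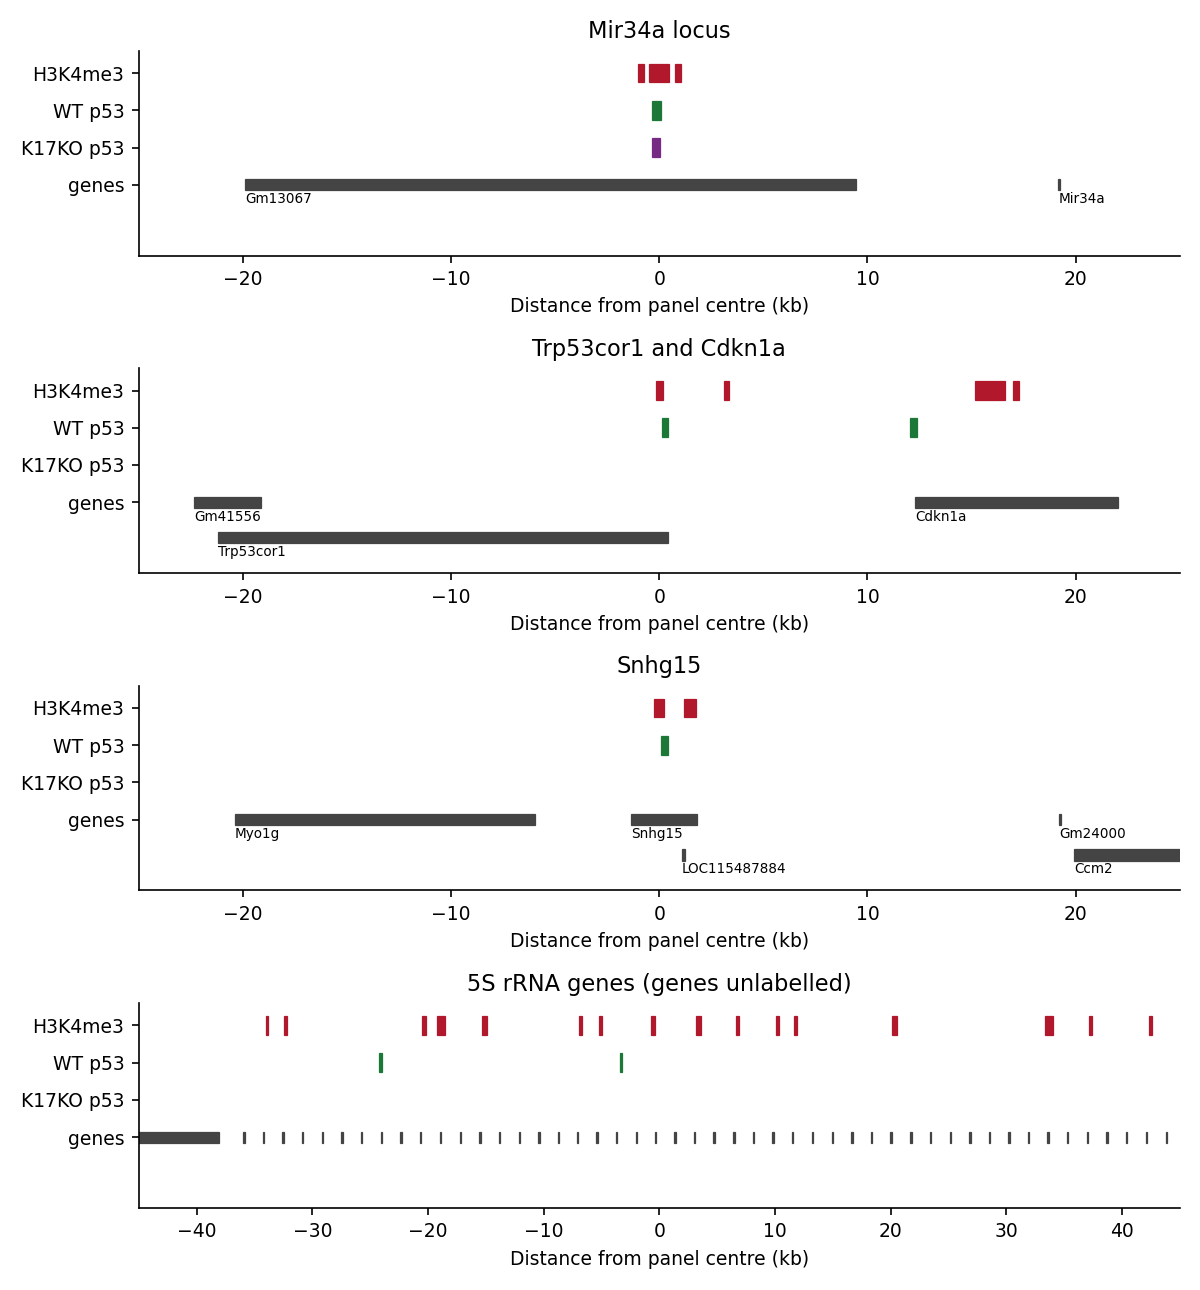
Maps of 4 loci with H3K4me3, WT p53 and K17KO p53 peaks and RefSeq genes as boxes drawn to scale, by distance from the panel centre (kb). At the Mir34a locus both p53 peaks fall within the middle H3K4me3 peak, 19168 bp from Mir34a. At Trp53cor1 and Snhg15 the overlap is with WT p53 alone. In the 5S rRNA array H3K4me3 peaks are spread over the row of genes, with gaps of several genes between some of them.

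The 5S rRNA genes held the longest run of peaks. RefSeq places 40 of these genes, whose RNA is part of the large ribosomal subunit, in an array at chr8:123538784-123622046, a span of 83.3 kb. Of the 770 peaks 15 lay within 1 kb of an rRNA gene (1.95%, beside 0.275% of all H3K4me3 peaks), all in this array, and they touched 15 of the 63 rRNA genes in the table. Their folds ran from 1.80 to 2.84 with a median of 2.13, with 35 to 75 fragments over backgrounds of 18.9 to 37.4. All 15 were thus of like depth and fold. Their q-value was at most 0.01 at 14 of the 15. The midpoints lay 5.5 to 299 bp from the gene, with a median of 228 bp. The list has 16 peaks within the span of the array, the remaining one beside a 5S pseudogene. Since the copies are nearly identical, reads cannot be assigned to single copies with certainty, and how reads with several matches were placed is not given in the sources. The WT p53 list had 2 peaks in the array, neither of which overlapped an H3K4me3 peak, and the K17KO list had 0.

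Transfer RNA genes lay within 1 kb of 4 peaks, 0.519%, beside 0.348% of all. They were n-TNgtt6 (1.62-fold, 93 fragments over 57.0), n-TKctt14 with n-TPtgg6 (1.94-fold, 208 over 107), n-TEctc13 with n-TGtcc7 (1.504-fold, 151 over 100.04) and n-TAagc8 (1.63-fold, 107 over 65.4). A peak 420.5 bp from Rn7sk, the 7SK RNA that holds the elongation factor P-TEFb inactive, was at 1.75-fold with 192 over 109. A small nuclear RNA gene lay within 1 kb of 3 peaks (0.390%, beside 0.11% of all) and a small nucleolar RNA gene within 1 kb of 3 (0.390%, beside 0.293%). The transfer RNA and 7SK sites were thus among the deeper peaks between genes.

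Some peaks lay in repeated sequence by annotation. The widest of the 770, 1704 bp at chr17:39846370-39848073, lay inside Rn18s-rs5, an 18S rRNA-related pseudogene, and 890 bp from the lncRNA gene AY036118. It was at 3.82-fold with 328 fragments over 85.1. A pseudogene lay within 1 kb of 44 peaks, 5.71% (4.18% to 7.60%), beside 1.5% of all. The 44 had a median fold of 2.53 with 44.5 fragments, close to the set as a whole. The peaks with most fragments lay at chr9:3000213-3000653 (470 over 368), chr8:19784739-19784998 (441 over 344), chr6:47744264-47744683 (430 over 259), chr14:19418672-19418954 (391 over 280) and chr9:3034873-3035146 (365 over 276). Their folds were 1.28, 1.28, 1.66, 1.40 and 1.32. The greatest depth thus went with low folds.

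Most peaks between genes had no other H3K4me3 peak within 5 kb, as was the case for the list as a whole. Another H3K4me3 peak of any class lay within 5 kb of 120 of them, 15.6% (13.1% to 18.3%), beside 17.7% of all. Peaks between genes at most 10 kb apart were then joined, with peaks of the other classes left out. In this count 656 joined no other peak between genes, 40 stretches held 2 peaks, 5 held 3, 2 held 4 and 1 held 11. The 656 can still have a peak of another class close by. The stretch of 11 was the middle of the 5S array. The stretches of 4 lay at chr15:85670351-85681185 near Ppara, with folds of 1.27 to 2.39, and at chr17:28515459-28523896 near Armc12 and the lncRNA gene E230001N04Rik, with folds of 2.13 to 3.19. Neat1 and Gm13067 held stretches of 3. Without the 15 peaks at 5S genes, the other 755 had a median fold of 2.62 and 35.1% had a noncoding gene within 1 kb.

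Nearest protein-coding genes were set beside gene lists, of which the background is 670 of 21887 protein-coding genes, or 3.06%, nearest to a peak between genes. A gene in a wide intergenic space has more chance to be nearest, so these counts describe positions only. Among hair follicle genes, 8 of 33 were nearest to a peak. Lgr5, a stem cell receptor, was nearest to a peak 30204.5 bp away at 3.83-fold with 10 fragments over 1.87. Hoxc13, a regulator of hair keratins, was nearest to a peak 10691 bp away at 3.596-fold with 25 over 6.23. A peak 2559.5 bp from Id2 was at 2.18-fold with 105 over 47.7. The peak nearest to Gata3 was at 3.90-fold with 8 over 1.31, at a distance of 263018 bp. Depth thus differed widely within the list.

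Among immediate early genes, which respond within minutes to stress and growth signals, 6 of 22 were nearest to a peak. The peak 1751 bp from the start of Atf3 was at 2.44-fold with 41 fragments over 16.2, and that 2988 bp from the start of Fosl2 was at 1.98-fold with 134 over 67.3. The peak nearest to Fos was at 5.00-fold with 14 over 2.003, 28788 bp away, and that nearest to Egr2 was at 4.21-fold with 15 over 2.80, 61026.5 bp away. Of these 4, the pair close to their gene had more fragments, but a peak 119006 bp from Klf4 had 125 over 63.6.

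Among p53 target genes, 3 of 36 were nearest. Besides Cdkn1a, Trp53inp1 was nearest to peaks 32830 bp away at 3.96-fold (40 over 9.35) and 33445 bp away at 2.45-fold (14 over 5.12). The latter had a −log10 q of 0.631. Sesn2, which encodes a stress-induced antioxidant protein, was nearest to 1 at 1.63-fold (107 over 65.4), 4805 bp away. That peak also lay beside the transfer RNA gene n-TAagc8. Glucocorticoid response genes had 3 of 15. Errfi1 was nearest to a peak 28379 bp away at 4.39-fold (19 over 3.56). Tsc22d3 was nearest to a peak 27191.5 bp away at 3.68-fold (13 over 2.80). Zbtb16 was nearest to a peak 2400 bp away at 2.03-fold, with a −log10 q of 0.343. Epidermal keratinocyte and barrier genes had 3 of 34, with Krt10, a keratin of the differentiating epidermis, at 4.28-fold with 9 over 1.34 and the desmosome gene Dsp at 2.65-fold with 66 over 24.3. Interferon-induced genes had 2 of 23, namely Samd9l and Gbp5.

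Of the other cell types in skin, 1 of 15 endothelial genes (Sox17) and 1 of 19 immune genes (Ptprc) were nearest to a peak. These peaks were 74423.5 bp from Sox17 at 2.34-fold and 161945 bp from Ptprc at 1.46-fold, the latter with a −log10 q of 0.330. None of the 20 dermal fibroblast, 10 melanocyte, 12 adipocyte or 14 skeletal muscle genes was, nor any of the 19 core circadian clock genes or the 25 genes of other organs. Ubiquitously active genes had 3 of 20, among them Eef1a1 with peaks at 4.52- and 4.15-fold, 21915.5 and 23308 bp away. With a background of 3.06%, lists of this size are often at 0, and the counts do not identify the cells from which the peaks came.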

How the data were processed

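The 12 samples were assigned to groups by their titles. Bowtie2 2.2.5, SAMtools 1.7, MACS2 2.1.2 and the build mm10 are named, per the submitters' processing notes, without role or order. The libraries behind each list, the control, the call threshold and the handling of reads with several matches are not given. Each deposited list has 10 columns without a header. The deposited fold enrichment is a ratio of pileup to background, and the deposited columns of −log10 p and of −log10 q hold the caller's values. The deposited score equals 10 times −log10 p, cut to a whole number, in 100% of peaks. The deposited summit offset was used in an alternative only.

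Fragments and background were solved from fold, taken as (fragments + 1)/(background + 1), and the upper Poisson tail. In each list, 100% of peaks were met by a whole number of fragments, to within 0.001 in −log10 p. Library totals were not used here. Gene positions came from RefSeq for GRCm38.p6 (49943 genes, 21887 protein-coding, 16937 noncoding). Start windows were available for 9533 of 12727 lncRNA genes, and 11 peaks on a chromosome without windows were left out of counts at starts. The planned motif search in peak sequences needs a genome and was not run. Start windows were searched instead.

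The members, gene lists and named regions were chosen with earlier results of these data known. Named regions are the 10 of highest fold, the 5 with most fragments, the 5 widest, the 5 farthest, all that overlap a p53 peak, the 10 of highest fold beside a named noncoding gene, all within 5 kb of a microRNA gene, the 5 longest stretches, up to 4 a gene list and 3 on either side of 1 kb. Some of them are counted but not described. Malat1, Neat1, Snhg7, Snhg15, Lncpint, Dleu2, Norad, Kantr, Rn7sk, the tRNA and rRNA sites, and peaks at Mir34a, Mirlet7a-1, Mir182, Mir9-3hg and Mir99ahg were described as members of noncoding lists or chosen after their values were seen. No test between groups was possible, because each list is a single set of peaks. Shares have exact Clopper-Pearson 95% intervals. On simulated data, 200 of 200 planted positions and 500 of 500 planted fragment counts were recovered. The planted counts were made with the formulas that were then solved. This checks the code and cannot show that the formulas are the caller's. Python 3.11.15, numpy 2.4.6, pandas 2.3.3, scipy 1.17.1 and matplotlib 3.10.9 were used. The alternatives concerned the q-value, the summit, distance limits, predicted genes, windows around noncoding genes, and the p53 overlap.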

Additional observations from a re-analysis of the deposited data

Results flagged for a closer look

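The H3K4me3 list also holds 4 peaks on contigs for which the gene table gives no positions, so they entered no comparison. Their folds were 2.83, 3.09, 1.64 and 1.58 with 23, 8, 362 and 194 fragments over backgrounds of 7.48, 1.91, 220 and 122. The peak with 8 fragments had a −log10 q of 0.811. No control list was analysed here, and whether such peaks lie between genes was not tested.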

How the results depend on the processing

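Of 48 recomputed values, 36 stayed within the interval of the reported value (counts within 1.5 times), and 12 moved. The number of peaks between genes ran from 550 to 833. With q of at most 0.01 the median fold was 2.81, and it was 2.89 in the 50% of the list with the highest folds. With a limit of 5 kb from gene ends the share of the list was 11.9%, the share beyond 50 kb 30.2% and the share with a neighbouring peak 12.6%. Without predicted protein-coding genes the share of the list was 15.2%. The share beside a noncoding gene was 44.4% with a window of 5 kb and 41.4% with pseudogenes counted. The share with a neighbouring peak was 27.0% with a window of 20 kb. An alternative chosen after seeing the data left out all H3K4me3 peaks with a background of at least 100 fragments, which removed more peaks at gene ends than between genes. It gave a share of the list of 24.2%, a median fold of 2.76 and a share with a neighbouring peak of 11.0%. The wider windows and limits, the added pseudogenes, the dropped predicted genes and the choice of the highest folds move these values by construction. The 60 peaks between genes that the last alternative left out had folds of 1.27 to 1.94, all below the reported median fold. For the remaining values that moved, the cause was not tested. No paired analysis was possible because the lists name no sample, and for the same reason no replicate could be left out. Shallow peaks limit what can be said of single sites, since 131 peaks rest on 6 to 19 fragments.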

Other observations

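Peaks between genes made up 14.1% of the whole list, and from 7.38% (11 of 149, chromosome 18) to 22.9% (22 of 96, chromosome X) of the H3K4me3 peaks on single chromosomes other than Y, which had 1 peak, between genes. The peak farthest from any protein-coding gene end, 832634 bp away, lay within the immunoglobulin heavy chain locus Igh, at 1.90-fold with 47 fragments over 24.3. A background of at least 200 fragments was found at 8 peaks between genes, 4 of them on chromosome 9 between positions 3000213 and 3038158.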
